A study of Mus musculus with 17 samples.

Results

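Choroid plexus taken after 3 days of dextran sodium sulfate (DSS) was compared with choroid plexus taken after 1 day. All 4 libraries labelled T3 (3 days of DSS) were set against all 4 libraries labelled T1 (1 day of DSS), which makes 8 of the 17 libraries in the series. The labels give T1, T3 and T5 as DSS time points, without further detail of dosing. The mice were C57BL/6, and the labels record no genetic alteration, no vehicle and neither age nor sex. Both groups received DSS, so that the comparison asks how the tissue differs between 2 lengths of the same exposure. The other libraries, 4 of the T5 time point (water for 2 days after the 3 of DSS) and 5 controls (CTRL), entered the shared estimate of spread, and CTRL values are given where they place a level. Total RNA came from the whole plexus of the lateral ventricles. Nothing in the labels ties a library to its own mouse, so that each p-value describes spread between libraries, which can be technical in part.

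DSS is a sulfated polymer that injures the lining of the colon and is given in drinking water to produce colitis in mice. The choroid plexus is a secretory epithelium, joined by tight junctions, that folds over a core of stroma and fenestrated capillaries. It makes cerebrospinal fluid and forms the barrier between blood and that fluid, and its capillaries, unlike those of the brain, carry pores closed by diaphragms of the protein PLVAP.

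The deposited read counts summed to 10881890, 26839417, 23524389 and 21163532 in T3 replicates 1 to 4, and to 10751532, 23555242, 13864598 and 8875921 in T1 replicates 1 to 4. Ttr, the transthyretin gene of the plexus epithelium, took 6.61 to 11.5% of the counts in T3 and 6.75 to 13.6% in T1, and all 19 epithelial markers on the list were detected well enough to be tested. Values below are CPM, read counts scaled to TMM-normalised library size, unless stated otherwise, and log2 fold changes are T3 minus T1 with an approximate SE from edgeR.

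The 8 libraries did not divide by length of exposure alone. Sample titles are numbered, and in 4 libraries the number is 28 or higher, namely in T3 replicate 4 and T1 replicates 2, 3 and 4. Across all genes tested, the library most like T3 replicate 4 among the other 7 was T1 replicate 2 (Pearson r = 0.960 of log2 CPM, a description), and the library most like T1 replicate 1 was T3 replicate 2 (r = 0.969). Thinned to 8875921 counts, T3 replicate 4 showed 26305 detected genes and T3 replicates 1 to 3 showed 19899 to 21016. At the same depth T1 replicates 2 to 4 showed 24211 to 26356 detected genes and T1 replicate 1 showed 21395. Mitochondrially encoded genes took 2.03% of the counts in T3 replicate 4 and 2.58 to 2.94% in T3 replicates 1 to 3, and they took 1.86 to 2.04% in T1 replicates 2 to 4 and 3.37% in T1 replicate 1. The labels name no batch. All CTRL libraries have numbers below 28, so that T1 replicates 2 to 4 and T3 replicate 4 differ from CTRL in number class too. Without T3 replicate 4, T3 is left with numbers below 28 only. Because each group has libraries on both sides of the number 28, T3 minus T1 was also computed within each number class, with 3 T3 libraries against 1 T1 library below 28 and 1 T3 library against 3 T1 libraries at 28 and above. In both classes a lone library is assumed to vary like the others.

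Over all 16851 genes tested, edgeR's quasi-likelihood test called 0 genes at a Benjamini-Hochberg adjusted p of 0.05 (0% of genes), and the lowest edgeR adjusted p was 0.297. At an unadjusted p under 0.05 there were 1381 genes (8.2%), against 843 that chance gives, with 601 higher in T3 (3.57%) and 780 lower (4.63%). DESeq2 called 24 genes, 2 higher and 22 lower in T3 (0.142% of all 16851 genes). It gave no adjusted p for 2331 of the 16851 genes, and these count as not called. In limma voom with sample quality weights 4065 genes were called (24.1%), 2077 higher and 1988 lower. That fit gave T3 replicate 4 a weight of 0.263 and T1 replicate 1 a weight of 0.406, the 2 lowest of the 17 libraries, so that it leans on T3 replicates 1 to 3 and T1 replicates 2 to 4, which lie in different number classes. The 4 T3 and 4 T1 values did not overlap in 451 genes (2.68%), with T3 higher in 160 (0.949%) and lower in 291 (1.73%).

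The differences within the number classes did not resemble each other over the whole transcriptome. T3 minus T1 had the same sign in both classes for 8313 of 16851 genes (49.3%), and across genes the 2 sets of log2 fold changes had a Pearson r of -0.04 and a Spearman rho of -0.04, a description over genes that share their libraries. Genes were named from the smallest edgeR p-values among those that averaged 1 CPM or more over the 8 libraries and have an established symbol. Of these 24 genes, 21 were lower and 3 higher in T3, the libraries of 21 did not overlap, and 21 were called by DESeq2. All 24 had the same sign in both classes. They were chosen by p from these libraries, so that their agreement is a description and no independent support.

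**Figure D1:**
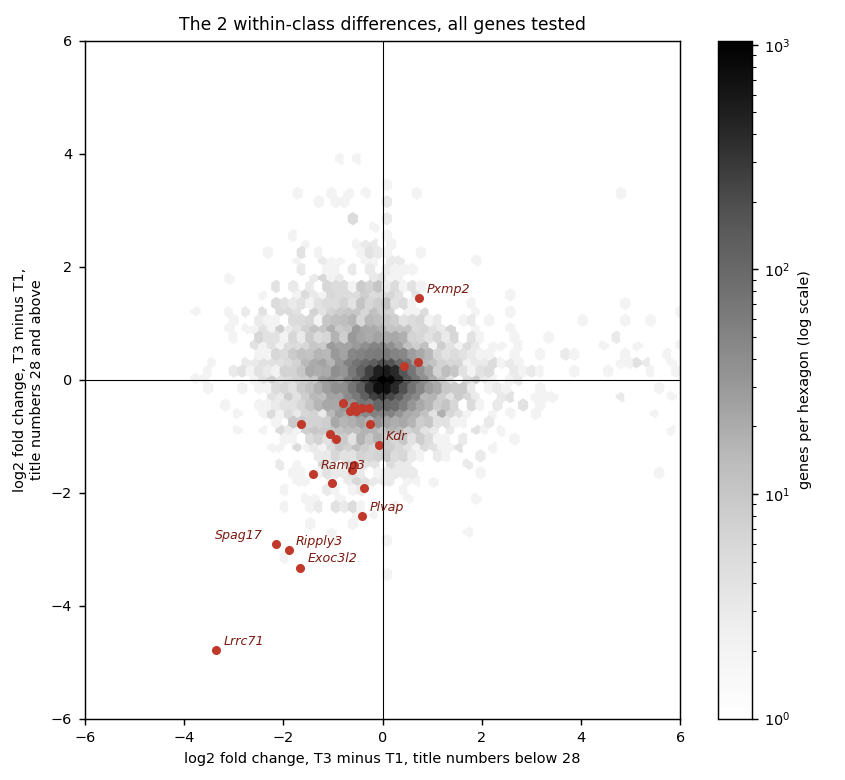
Log2 fold change, T3 minus T1, of the genes tested (those beyond the ends of the axes are not drawn) within title numbers below 28 (x axis, 3 T3 and 1 T1 libraries) and within title numbers of 28 and above (y axis, 1 T3 and 3 T1 libraries). Grey hexagons count genes on a log scale and centre on 0 without a diagonal trend (r = -0.04), and red points mark the 24 genes with the smallest p, 21 of them below 0 on both axes.

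Of the 24 genes, Plvap and Kdr are on the endothelium list. Gpihbp1, Ramp3, Esm1, Exoc3l2 and Slc43a3 are described beside them, a grouping made after their values were seen, among 24 genes of which 21 were lower in T3. The stretches before the start of 4 of these genes, from RefSeq on GRCm38.p6, are shown because these genes were lower in T3 together. Each window holds the 250 bases before the RefSeq start, on the strand of the gene, 5′ to 3′. Kdr lies at chr5:75978456-75978705 (minus strand), Ramp3 at chr11:6658283-6658532, Exoc3l2 at chr7:19463037-19463286 and Esm1 at chr13:113209409-113209658 (plus strand). Capitals mark GGAAG, or CTTCC on the other strand, a 5-base form of the GGAA core bound by ETS factors. Copies of GGAA followed by another base are not marked.
Kdr: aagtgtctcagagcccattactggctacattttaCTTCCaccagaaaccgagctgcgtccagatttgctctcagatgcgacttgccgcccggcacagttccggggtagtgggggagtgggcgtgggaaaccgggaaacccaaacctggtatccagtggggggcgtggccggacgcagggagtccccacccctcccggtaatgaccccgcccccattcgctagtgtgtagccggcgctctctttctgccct
Ramp3: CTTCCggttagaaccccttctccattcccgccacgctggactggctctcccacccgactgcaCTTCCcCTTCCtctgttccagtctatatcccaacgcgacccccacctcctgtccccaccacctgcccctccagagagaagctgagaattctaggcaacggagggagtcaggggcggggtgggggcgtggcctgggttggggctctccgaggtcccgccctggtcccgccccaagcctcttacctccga
Exoc3l2: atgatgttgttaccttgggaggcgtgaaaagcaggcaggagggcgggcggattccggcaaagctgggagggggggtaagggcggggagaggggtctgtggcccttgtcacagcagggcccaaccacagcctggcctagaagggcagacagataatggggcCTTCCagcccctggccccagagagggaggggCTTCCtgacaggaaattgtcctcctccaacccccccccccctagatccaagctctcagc
Esm1: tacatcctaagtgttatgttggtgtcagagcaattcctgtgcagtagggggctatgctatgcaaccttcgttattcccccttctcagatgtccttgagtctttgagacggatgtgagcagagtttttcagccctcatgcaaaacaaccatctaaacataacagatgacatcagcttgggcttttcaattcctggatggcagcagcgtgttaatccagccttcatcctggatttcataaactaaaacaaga
This 5-base form was found 1 time before Kdr, 3 times before Ramp3, 2 times before Exoc3l2 and 0 times before Esm1. Of all 32851 RefSeq windows of this length, 64.1% hold at least 1 copy, beside 3 of these 4.

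Plvap, which encodes the diaphragm protein of fenestrated capillaries (chromosome 8, 71497765 to 71511752, minus strand), stood at 22.3, 25.1, 27 and 17 CPM in T3 replicates 1 to 4, against 33, 65.4, 123 and 84.8 CPM in T1 replicates 1 to 4. The groups did not overlap, and the lowest T1 library was replicate 1. The log2 fold change was -1.74 ± 0.37 (SE, n = 4 each; edgeR adjusted p = 0.476, DESeq2 adjusted p = 0.00226), with -0.41 below number 28 and -2.42 at 28 and above. CTRL libraries averaged 35 ± 11.1 CPM (SD, n = 5). T3 minus CTRL was -0.62 and T1 minus CTRL was 1.13. All CTRL libraries have title numbers below 28, as has T1 replicate 1, the T1 library nearest the CTRL mean.

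Gpihbp1 encodes the capillary protein that anchors lipoprotein lipase (chromosome 15, 75596628 to 75599481, plus strand). It stood at 4.05, 2.52, 3.29 and 2.93 CPM in T3, against 5.00, 7.29, 11.2 and 8.01 CPM in T1, without overlap. Its log2 fold change was -1.31 ± 0.29 (edgeR adjusted p = 0.476, DESeq2 adjusted p = 0.0111), with -0.62 and -1.59 in the lower and higher number classes.

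Ramp3 encodes a partner protein that turns the calcitonin receptor-like receptor into a receptor for adrenomedullin (chromosome 11, 6658521 to 6677475, plus strand). Its 4 T3 values were 1.64, 2.95, 2.42 and 1.98 CPM, against 6.22, 6.35, 7.32 and 5.28 CPM in T1. Here T1 replicate 1 lay with the rest of its group, and T3 replicate 4 with the rest of T3. The log2 fold change was -1.48 ± 0.28 (edgeR adjusted p = 0.313, DESeq2 adjusted p = 0.00186), and it was alike in the classes, at -1.40 below 28 and -1.67 at 28 and above. CTRL averaged 4.44 ± 1.35 CPM, between both groups.

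Esm1, a secreted proteoglycan gene of sprouting endothelial tip cells, stood at 3.76, 2.56, 2.42 and 3.71 CPM in T3 and at 4.29, 11.2, 10.4 and 9.93 CPM in T1 (-1.53 ± 0.36; edgeR adjusted p = 0.532). T3 lay at the CTRL level of 3.24 ± 1.35 CPM. T1 replicate 1, below number 28 like all CTRL libraries, also lay within the CTRL range of 1.40 to 4.57 CPM. Exoc3l2, which encodes an exocyst-related protein, stood at 1.83, 1.28, 1.005 and 0.948 CPM in T3 and at 4.29, 3.38, 20.2 and 5.19 CPM in T1 (-2.72 ± 0.61; edgeR adjusted p = 0.476). T1 replicate 3 was far above the other T1 libraries. Without it the log2 fold change was -1.79, and the groups did not overlap.

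Kdr, which encodes the signalling VEGF receptor of the endothelium (chromosome 5, 75932827 to 75978458, minus strand), gave 14.7, 28.8, 25.4 and 42.1 CPM in T3, against 24.5, 84.5, 113 and 83.9 CPM in T1. Here the groups overlapped through T1 replicate 1. The log2 fold change of -1.46 ± 0.36 (edgeR adjusted p = 0.577, DESeq2 adjusted p = 0.0219) was -0.08 below number 28 and -1.16 at 28 and above. Slc43a3, a purine transporter gene, had -1.47 ± 0.33 and did not overlap, with T1 replicate 1 again the lowest of its group at 9.08 CPM, against 5.73 to 7.22 CPM in T3.

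Of the 20 endothelium markers, 19 were tested and 18 had a log2 fold change below 0, with a median of -0.88, beside 52% below 0 and a median of -0.02 over all genes. Without T3 replicate 4 the endothelium median was -1.49. Unadjusted p was under 0.05 for 10 of them, all lower in T3, against 4.63% of all genes. By edgeR 0 were called, and by DESeq2 2 were (0.142% of all genes), Plvap and Kdr, both among the genes chosen by p. Among the others, Emcn, which encodes the endothelial sialomucin endomucin, stood at 39.8, 34.5, 23.7 and 28.9 CPM in T3 and at 60.2, 56.4, 59.1 and 47.6 CPM in T1, without overlap (-0.82 ± 0.23). It had -0.89 and -0.91 in the lower and higher number classes. Podxl, a sialomucin gene of endothelial and kidney cells, had -1.60 ± 0.50 with overlapping groups. The junction genes Cdh5, which encodes VE-cadherin (-0.86 ± 0.58), and Pecam1, an adhesion gene of endothelial contacts (-0.92 ± 0.45), overlapped between groups. They had -1.50 and -1.61 without T3 replicate 4, which leaves T3 with title numbers below 28 only. Cdh5 had -0.82 below number 28 and 0.0041 at 28 and above, and Pecam1 had -0.57 and -0.06. Cldn5, the main claudin gene of blood vessels with a tight barrier, was the member with a positive value (0.34 ± 0.71), through 45.7 CPM in T3 replicate 4, against 7.13 to 14.1 CPM in the other T3 libraries.

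Within numbers below 28, 17 of the 19 endothelium markers were lower in T3 (median -0.56), and at 28 and above 13 were (median -0.35). The mean log2 CPM of the list was 2.71, 2.87 and 2.97 in T3 replicates 1 to 3 and 4.17 in T3 replicate 4, against 3.37 in T1 replicate 1 and 4.01 to 4.66 in T1 replicates 2 to 4. In whole tissue, fewer cells of a type and less RNA per cell cannot be told apart. The list of vascular barrier and adhesion genes, which shares Plvap and Cldn5 with the markers, had a median of -0.13 with 10 of 17 tested members below 0. In it Cavin2, a caveolar coat gene, was slightly higher in T3, at 103 to 106 CPM, against 76.5 to 98.8 CPM in T1, without overlap (0.25 ± 0.10).

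The pericyte genes named here were lower in T3 too. Rgs5, a signalling regulator gene that marks pericytes, stood at 38.8, 29.4, 21.1 and 30.2 CPM in T3 and at 52.2, 58.6, 54.9 and 55.1 CPM in T1, without overlap (-0.89 ± 0.30; edgeR adjusted p = 0.577), with -0.82 and -0.90 in the lower and higher number classes. Abcc9, a potassium channel subunit gene of pericytes, had -1.88 ± 0.62, but 0.11 below number 28. The mural cells list had 8 of 12 members below 0 and a median of -0.73, with -0.41 without T1 replicate 4 and -1.15 without T3 replicate 4. Within numbers below 28 its median was -0.20, and at 28 and above it was 0.32, with 7 of 12 above 0. Cnn1, Acta2, Myh11 and Tagln, contractile genes of smooth muscle, had values of 2.80, 2.07, 1.85 and 1.3, which were singled out after they were seen. Below number 28 all were below 0 (-0.09, -0.32, -0.63 and -0.51), and at 28 and above, where T3 replicate 4 is the lone T3 library, they were 4.67, 3.80, 3.55 and 2.94. T3 replicate 4 held the highest mean log2 CPM of the mural list, 4.35, beside 1.56 to 1.98 in the other T3 libraries and 1.997 to 3.51 in T1.

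**Figure D2:**
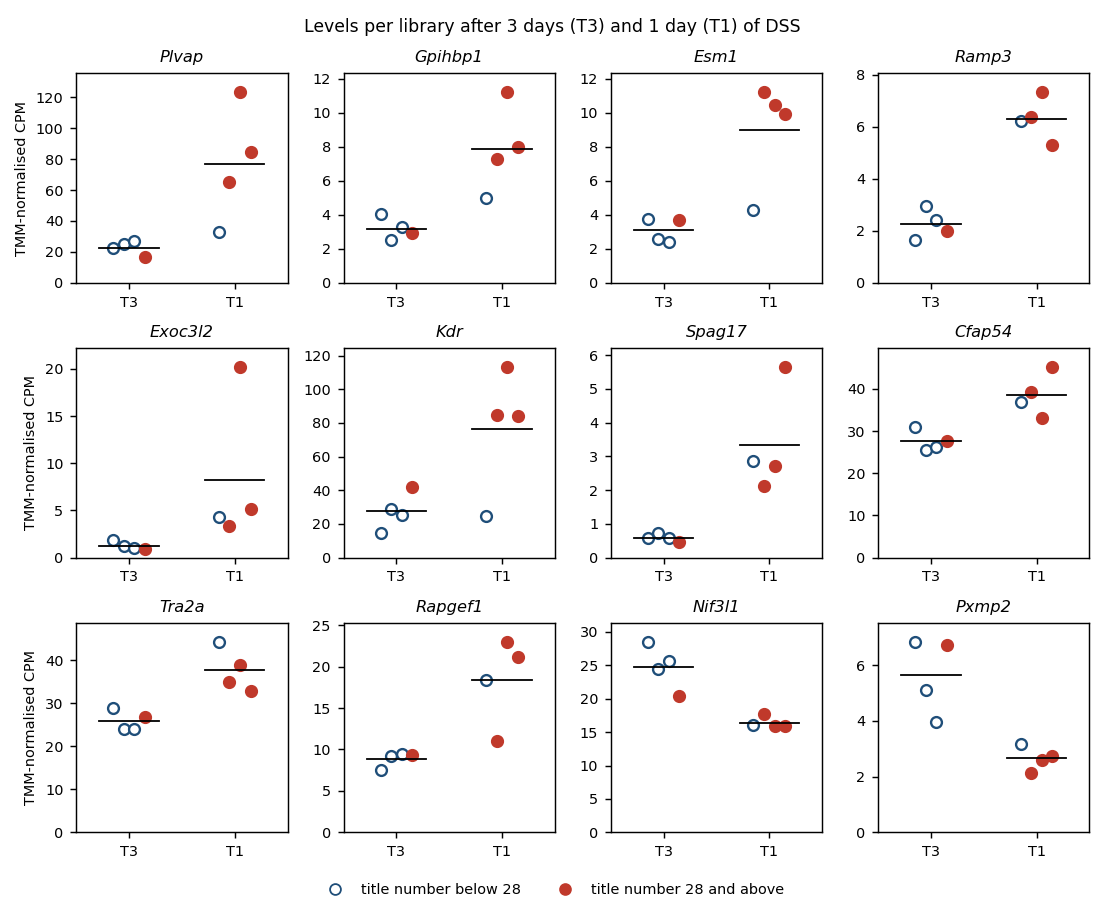
TMM-normalised CPM (y axes, from 0) of 12 of the named genes in the 4 T3 and 4 T1 libraries, with the group mean as a line. Open circles are title numbers below 28 and filled circles 28 and above. All genes shown but Kdr separate by group in both kinds of circle. For Kdr the open T1 circle (24.5 CPM) lies among the T3 values.

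Among receptor and growth factor genes, Cntfr, the receptor gene for ciliary neurotrophic factor, stood at 2.79, 4.19, 1.87 and 5.65 CPM in T3 and at 5.71, 10.4, 17 and 7.74 CPM in T1 (-1.49 ± 0.37; edgeR adjusted p = 0.577), with -0.95 and -1.05 in the lower and higher number classes. Igfbp3, a binding protein gene of insulin-like growth factors, stood at 16.5, 20.5, 26.7 and 38.6 CPM in T3 and at 36.1, 49, 139 and 68.7 CPM in T1 (-1.51 ± 0.41; DESeq2 adjusted p = 0.0464). Igf1r, the receptor gene for those factors, had -0.51 ± 0.15. The list of growth factors and hormones as a whole had a median of 0.09 with 17 of 26 members above 0. Lrp3, a gene of the low density lipoprotein receptor family, stood at 4.77 to 11.3 CPM in T3 and 13.1 to 30.8 CPM in T1 (-1.46 ± 0.37).

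Genes of motile cilia differed member by member. Spag17, a component of the central pair of the ciliary axoneme (chromosome 3, 99885406 to 100143322, plus strand), had 6, 19, 13 and 11 reads in T3, or 0.578, 0.737, 0.594 and 0.453 CPM. In T1 it had 28, 52, 42 and 62 reads, or 2.86, 2.12, 2.72 and 5.65 CPM. The groups were well apart in every library, and the log2 fold change was -2.48 ± 0.48 (edgeR adjusted p = 0.313, DESeq2 adjusted p = 0.0031), with -2.14 below number 28 and -2.92 at 28 and above. CTRL averaged 2.08 ± 0.88 CPM. Cfap54, another central pair gene, stood at 31, 25.5, 26.1 and 27.7 CPM in T3 and at 36.8, 39.3, 33 and 45.2 CPM in T1, a smaller difference without overlap (-0.49 ± 0.11; edgeR adjusted p = 0.476, DESeq2 adjusted p = 0.0234).

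Cfap43, whose product ties dynein arms to the axoneme, stood at 27.6 to 35.3 CPM in T3 and at 37.6 to 45.8 CPM in T1 (-0.39 ± 0.13). Lrrc71, a leucine-rich repeat gene, was near the lower limit, with 4, 3, 2 and 3 reads in T3 and 18, 14, 28 and 94 reads in T1 (-4.24 ± 0.98; edgeR adjusted p = 0.511). Its fold therefore depends on very few reads. Foxj1, the master transcription factor gene of motile cilia, stood at 48.9 to 72 CPM in T3 and 63.3 to 75.1 CPM in T1 (-0.14 ± 0.17).

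Among the 12 ependymal markers, 8 were below 0 with a median of -0.57, and 5 had an unadjusted p under 0.05, all lower in T3, against 4.63% of all genes. Tmem212, a marker of the ciliated ventricular lining, stood at 5.59, 5.62, 0.594 and 1.52 CPM in T3 and at 15.7, 4.24, 9.46 and 32.9 CPM in T1 (-2.24 ± 0.95). Rarres2, which encodes the chemoattractant chemerin, had -0.85 ± 0.38. The groups overlapped for both. Within numbers below 28, 9 of the 12 markers were lower in T3 (median -0.15), and at 28 and above all 12 were (median -0.78).

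The broader cilium and axoneme list held 28 tested members of 31, with 17 below 0 and a median of -0.23. The dynein heavy chain genes Dnah2 (-0.61 ± 0.22) and Dnah9 (-0.44 ± 0.18) and the assembly gene Ccdc40 (-1.47 ± 0.57; -0.94 without T1 replicate 4) were lower in T3. Spag6l, a central pair gene, was higher (0.33 ± 0.15). Below number 28 only 8 of the 28 were lower, and at 28 and above 26 were, so that the direction of this list differed between the number classes (medians 0.16 and -0.35). Dnah9 also differed in sign between them, with 0.23 and -0.58.

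Tra2a, a splicing activator gene of the SR-like family (chromosome 6, 49243924 to 49264033, minus strand), stood at 28.8, 24, 24.1 and 26.8 CPM in T3 and at 44.3, 34.9, 39 and 32.8 CPM in T1, without overlap. The log2 fold change was -0.54 ± 0.12 (edgeR adjusted p = 0.476, DESeq2 adjusted p = 0.0219), with -0.79 and -0.41 in the lower and higher number classes. T3 stood at the CTRL level of 24.9 ± 2.59 CPM. Luc7l3, a component associated with the U1 snRNP, had -0.41 ± 0.11 and the RNA helicase gene Ddx17 -0.42 ± 0.17, both without overlap. Srsf3, an SR splicing factor gene, ran the other way, at 134 to 158 CPM in T3 and 105 to 126 CPM in T1 (0.32 ± 0.10).

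Of the 20 splicing regulators, 15 were below 0 with a median of -0.16, 7 had an unadjusted p under 0.05 (8.2% of all genes), and 5 did not overlap, 4 lower and 1 higher in T3, against 2.68% of all genes. Within the number classes the medians were -0.14 and -0.03. Among the 24 were also Ankrd11, an interactor of histone deacetylases (-0.77 ± 0.17), and Ubn2, a subunit of the HIRA histone chaperone complex (-0.77 ± 0.18). Ankrd11 stood at 50.5 to 74.1 CPM in T3 and at 70.7 to 134 CPM in T1, a narrow overlap. Atxn2, an RNA-binding protein gene, stood at 49.3 to 51.6 CPM in T3 and at 58 to 83.7 CPM in T1 (-0.48 ± 0.12).

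Rapgef1 had the smallest p of the 24. It encodes a guanine nucleotide exchange factor for the small GTPase Rap1 (chromosome 2, 29619720 to 29740978, plus strand). Values were 7.51, 9.23, 9.50 and 9.36 CPM in T3, against 18.4, 11, 23 and 21.1 CPM in T1. T1 replicate 2 came closest to T3 without reaching it. The log2 fold change was -1.04 ± 0.19 (edgeR adjusted p = 0.297, DESeq2 adjusted p = 0.00186), with -1.07 and -0.97 in the lower and higher number classes, and CTRL averaged 14.5 ± 1.54 CPM. Without T1 replicate 2 Rapgef1 was called by edgeR, in a fit with 3 calls in all.

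Ripply3, a transcriptional corepressor gene, had 8, 12, 20 and 9 reads in T3 and 26, 56, 63 and 31 reads in T1, or 0.371 to 0.913 CPM and 2.28 to 4.08 CPM, without overlap (-2.24 ± 0.44; edgeR adjusted p = 0.313). Ces2e, a carboxylesterase gene, stood at 1.73 to 2.33 CPM in T3 and 4.18 to 6.84 CPM in T1 (-1.52 ± 0.37). Zfp704, a zinc finger gene, stood at 9.50 to 14.3 CPM in T3 and 15.7 to 26.7 CPM in T1 (-0.80 ± 0.20).

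Higher in T3 were 3 of the 24. Nif3l1, a conserved gene of the NIF3 family (chromosome 1, 58445151 to 58481816, plus strand), stood at 28.5, 24.4, 25.7 and 20.4 CPM in T3 and at 16, 17.6, 15.9 and 15.8 CPM in T1 (0.60 ± 0.13; edgeR adjusted p = 0.476, DESeq2 adjusted p = 0.0299). T3 lay at the CTRL level of 24.3 ± 2.62 CPM, and the T1 libraries lay close together. Pxmp2, a peroxisomal membrane channel gene, stood at 6.84, 5.12, 3.97 and 6.72 CPM in T3 and at 3.16, 2.12, 2.59 and 2.73 CPM in T1 (1.1 ± 0.26; DESeq2 adjusted p = 0.0453). Prpsap2, which encodes a protein associated with phosphoribosyl pyrophosphate synthetase, stood at 16.6 to 22 CPM in T3 and at 13.3 to 15.7 CPM in T1 (0.47 ± 0.11; DESeq2 adjusted p = 0.0594). For none of these 3 did the groups overlap.

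Inflammatory genes were lower in T3 than in T1 in the pooled comparison, and T1 replicate 3 was the highest library. Of 32 genes listed for NF-kB, cytokines and the acute phase, 25 passed the filter, 23 were below 0 with a median of -0.80 (-0.34 without T1 replicate 3), and 11 had an unadjusted p under 0.05, all lower in T3 (4.63% of all genes). Lcn2, which encodes the iron-scavenging acute phase protein lipocalin-2, stood at 0.482, 0.814, 0.548 and 3.38 CPM in T3, against 0.918, 0.204, 49.2 and 0.182 CPM in T1. T1 replicate 3 alone was high. The log2 fold change of -3.24 ± 1.41 turned to 1.65 without it. Reads of Lcn2 numbered 5, 21, 12 and 82 in T3 and 9, 5, 759 and 2 in T1. Without T1 replicate 3 the T1 side therefore depends on few reads.

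Ccl2, a chemokine gene for monocytes, stood at 0.867, 0.620, 0.502 and 0.495 CPM in T3 and at 0.510, 0.774, 8.29 and 0.637 CPM in T1 (-2.06 ± 0.82). Without T1 replicate 3 the value was -0.10. Osmr, the oncostatin M receptor gene, stood at 5.01, 5.23, 3.61 and 10.4 CPM in T3 and at 9.90, 9.37, 26.4 and 10.1 CPM in T1 (-1.20 ± 0.38). Its T1 replicate 1 lay with the other T1 libraries, and T3 replicate 4 lay within the T1 range. Steap4, a metalloreductase gene of inflamed tissue, stood at 10.3 to 23.2 CPM in T3 and at 15.7, 50.01, 131 and 35.2 CPM in T1 (-1.95 ± 0.57; DESeq2 adjusted p = 0.0636), with 0.05 below number 28. Tnfaip2, a gene induced by tumour necrosis factor, had -0.97 ± 0.34, with -0.11 below number 28. Without T1 replicate 3 Tnfaip2 had -0.42, Osmr -0.71 and Steap4 -1.18. The mean log2 CPM of the list was 2.38 to 3.12 in T3, against 2.53, 2.93, 4.57 and 3.21 in T1 replicates 1 to 4. Below number 28, 10 of the 25 were lower in T3 (median 0.12), and at 28 and above 23 were (median -0.55).

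Markers of blood leukocytes were sparse. Of 11 neutrophil markers 5 were tested, and their mean log2 CPM was 2.52 in T1 replicate 3, beside -1.14 to -0.09 in the other T1 libraries and -0.58 to 0.998 in T3. The part of these cells in the inflammatory values was not tested. Ly6g, Mmp8, Retnlg, Cxcr2, Camp and Mpo did not pass the filter on low counts. Of 12 lymphocyte markers 4 were tested.

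Immediate early genes, which cells transcribe within minutes of a stimulus, had a mean log2 CPM of 2.24, 2.09, 2.47 and 3.83 in T3 and of 2.32, 3.08, 3.73 and 4.01 in T1. Of 22 tested members 19 were below 0 (median -0.55; -0.21 without T1 replicate 4, -0.36 without T3 replicate 3 and -1.07 without T3 replicate 4), and 3 had an unadjusted p under 0.05, Zfp36, Ier2 and Junb, all lower in T3 (4.63% of all genes). Fos, a subunit gene of the AP-1 factor that was not among these 3, stood at 0.963, 1.09, 4.93 and 11.3 CPM in T3 and at 1.94, 5.25, 21.2 and 36 CPM in T1 (-1.80 ± 0.86; -1.06 without T1 replicate 4 and -2.78 without T3 replicate 4). Zfp36, which encodes a protein that promotes decay of cytokine mRNA, stood at 9.25, 10.2, 9.54 and 19.5 CPM in T3 and at 8.16, 20.2, 29.985 and 32.2 CPM in T1 (-0.90 ± 0.33). In Fos and Zfp36, T3 replicate 4 was the highest of T3 and T1 replicate 1 the lowest of T1. Ier2 (-1.22 ± 0.46; -0.78 without T1 replicate 4) and Junb (-1.09 ± 0.51; -0.54 without T1 replicate 3 and -1.68 without T3 replicate 4), which encode nuclear factors of the same early response, overlapped between groups too. Within the classes the medians of the list were 0.01 and 0.09.

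**Figure D3:**
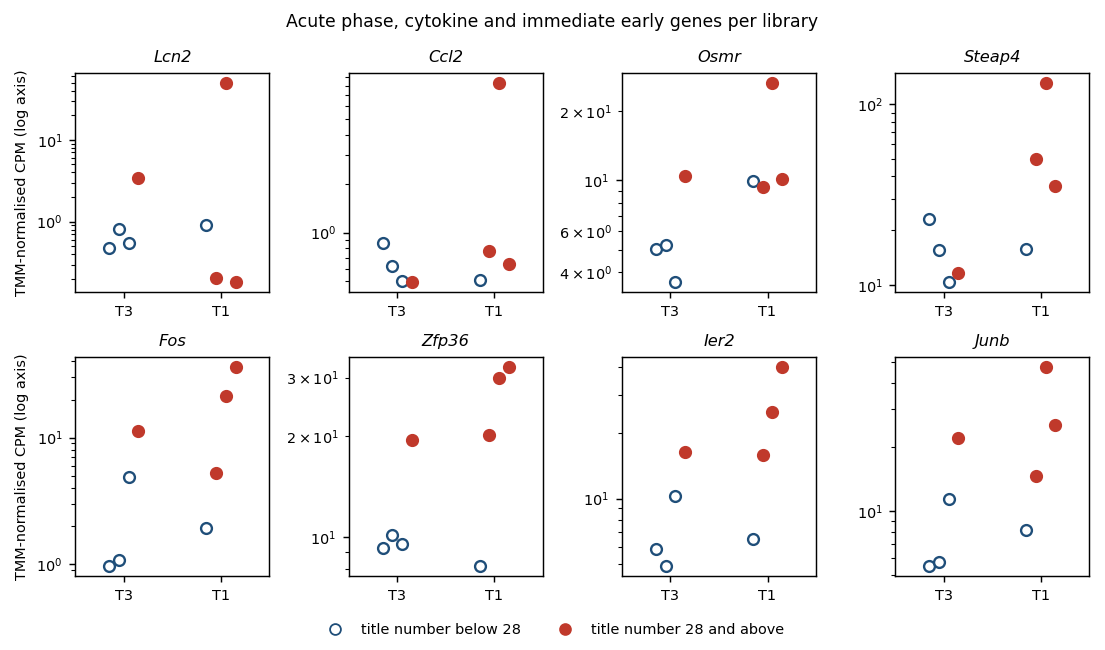
TMM-normalised CPM (log axes) of 4 acute phase and cytokine genes (upper row) and 4 immediate early genes (lower row) in each T3 and T1 library, with open circles for title numbers below 28 and filled circles for 28 and above. Lcn2 and Ccl2 are high in 1 T1 library (49.2 and 8.29 CPM), and in Zfp36 the filled circles of both groups, 19.5 to 32.2 CPM, lie above all open ones.

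Genes that respond to glucocorticoids had a median of -0.40 (-0.23 without T1 replicate 4) with 15 of 18 below 0. Nfkbia, the inhibitor gene of NF-kB (-0.46 ± 0.19), and Klf9, a Krüppel-like factor gene (-0.36 ± 0.16), were lower in T3 with overlapping groups, and within the classes the medians were -0.23 and -0.17. Complement genes had a median of -0.33 with 13 of 15 tested members below 0. The median was -0.11 without T1 replicate 3, -0.13 without T3 replicate 2, -0.17 without T3 replicate 3 and -0.52 without T3 replicate 4, and -0.37 and -0.04 in the lower and higher number classes. Cfp, which encodes properdin, stood at 1.06 to 2.47 CPM in T3 and 1.95 to 5.38 CPM in T1 (-1.22 ± 0.39), and C5ar1, the receptor gene for C5a, had -1.19 ± 0.53 (-0.48 without T1 replicate 3). Genes of interferon gamma signalling and antigen presentation were balanced, with 13 above and 14 below 0 and a median of -0.03. In it Irgm1, an interferon-induced GTPase gene, had 0.42 ± 0.17 (0.25 without T3 replicate 3), whereas Irf1, an interferon regulatory factor gene, had -0.50 ± 0.20 (-0.26 without T1 replicate 3). Ciita, the transactivator gene of MHC class II, had -0.83 ± 0.38. Its groups did not overlap, at 0.771 to 1.28 CPM in T3 and 1.64 to 1.94 CPM in T1. These values rest on few reads, 8, 25, 23 and 31 in T3 and 19, 45, 29 and 18 in T1. The type I interferon list had a median of -0.12 over 21 tested members, with 0 at an unadjusted p under 0.05 (8.2% of all genes).

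Genes of the respiratory chain, of ribosomes and of the proteasome and ubiquitin were higher in T3 in the pooled comparison. This held for every member of 4 lists, by small amounts. All 32 nuclear genes of the respiratory chain had a log2 fold change above 0, with a median of 0.37 and a range of 0.21 to 0.43, beside 48% above 0 over all genes. Unadjusted p was under 0.05 for 8 of them, all higher in T3 (3.57% of all genes), and 0 did not overlap (2.68% of all genes). Without T1 replicate 1 the median was 0.58, and without T1 replicate 4 it was 0.24. All 32 cytoplasmic ribosomal protein genes (median 0.27), all 28 mitochondrial ribosomal protein genes (median 0.27) and all 20 proteasome and ubiquitin genes (median 0.30) were above 0 as well.

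Uqcrfs1, which encodes the Rieske subunit of complex III, stood at 393, 377, 391 and 249 CPM in T3 and at 326, 281, 236 and 225 CPM in T1 (0.40 ± 0.15). T3 replicate 4 lay within the T1 range. Ndufs1 (0.39 ± 0.16) and Ndufa10 (0.31 ± 0.13), both subunits of complex I, showed the same arrangement. The glycolytic genes Pgam1 (0.41 ± 0.13), Aldoa (0.32 ± 0.14) and Tpi1 (0.30 ± 0.14) did so too, in a list of 23 with 19 above 0 and a median of 0.23.

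Within number classes the values were closer to 0 or below it. The respiratory chain median was 0.05 below number 28, with 20 of 32 above 0, and -0.04 at 28 and above, with 10 of 32 above 0. The cytoplasmic ribosomal genes had -0.12 and -0.14, the mitochondrial ribosomal genes 0.04 and -0.14, and the proteasome genes -0.01 and -0.08. Averaged over its members, the respiratory chain list had log2 CPM of 8.88, 8.76, 8.87 and 8.06 in T3 and of 8.78, 8.37, 8.05 and 7.92 in T1. T3 replicate 4 thus stood with T1 replicates 2 to 4, and T1 replicate 1 with T3 replicates 1 to 3.

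Transcript length moved with the same pooled difference. Protein-coding genes were divided into 5 equal classes by their longest annotated transcript. In the class with the shortest transcripts (255 to 2008 nucleotides) 69.5% of genes were higher in T3, with a median log2 fold change of 0.17. In the class with the longest (5350 nucleotides and more) 29.6% were, with a median of -0.16, and the classes between followed in order. Within number classes the medians of all 5 length classes lay between -0.09 and 0.04. Genes annotated as unconfirmed transcripts (537 tested) had a pooled median of -0.66, with 469 below 0, and medians of -0.47 and -0.05 in the lower and higher number classes. The part of transcript length or RNA quality in the list differences was not tested.

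**Figure D4:**
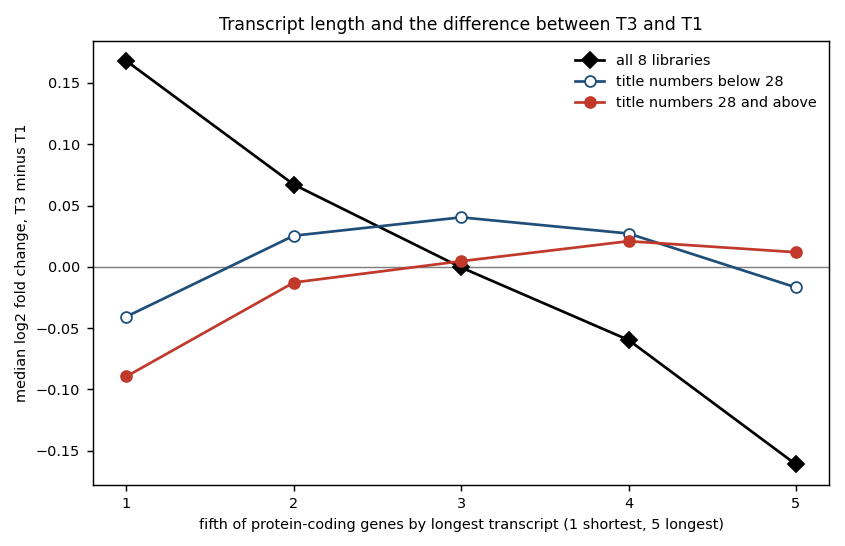
Median log2 fold change, T3 minus T1 (y axis), of protein-coding genes in 5 equal classes by their longest annotated transcript (x axis, shortest at the left), for all 8 libraries and within each class of title numbers. The pooled line runs from 0.17 to -0.16, and the 2 lines within classes stay between -0.09 and 0.04.

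The 8 mitochondrially encoded genes that were tested had a pooled median of 0.25 with 7 above 0, and -0.16 and -0.06 within the number classes. mt-Co2, mt-Atp6, mt-Atp8 and mt-Nd4l had 0 reads in all 8 libraries, and mt-Co3 did not pass the filter.

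T3 replicate 4 held the highest mean of the fibroblasts list and the highest values of the stromal genes Fn1 and Col1a2. The fibroblasts list had a median of 0.07 with 8 of 14 tested members above 0, and its mean log2 CPM was 6.41 in T3 replicate 4, beside 5.18 to 5.43 in the other T3 libraries and 5.51 to 5.70 in T1. Fn1, the fibronectin gene, stood at 2.31, 6.28, 13 and 145 CPM in T3 and at 7.55, 4.28, 11.9 and 22.6 CPM in T1 (1.86 ± 1.22). Col1a2, a collagen I chain gene, stood at 72.3, 98, 89 and 263 CPM in T3 and at 123, 122, 128 and 175 CPM in T1 (-0.07 ± 0.34). Without T3 replicate 4 all T1 values of Col1a2 lay above all T3 values. In that setting the log2 fold changes of Fn1 and Col1a2 were -0.68 and -0.68.

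Of 30 listed genes of extracellular matrix and basement membrane, 19 were below 0 with a median of -0.11, but 19 were above 0 within numbers below 28 (median 0.04), and at 28 and above 21 were (median 0.27). Lama5, a laminin chain gene, stood at 27, 26, 28.4 and 35.6 CPM in T3 and at 32.2, 61.4, 67.6 and 54.5 CPM in T1 (-0.88 ± 0.22; edgeR adjusted p = 0.577), with -0.25 and -0.78 in the lower and higher number classes. Col4a2, a collagen IV chain gene (-1.52 ± 0.53), and Hspg2, the perlecan gene (-0.78 ± 0.29), had 0.15 each below number 28.

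Markers of surrounding brain differed widely between libraries. All 12 oligodendrocyte markers were below 0, with a median of -2.88 (-1.51 without T1 replicate 4). Yet 0 had an unadjusted p under 0.05 (8.2% of all genes). Mbp, the myelin basic protein gene, stood at 76, 119, 97.8 and 491 CPM in T3 and at 140, 421, 1234 and 4741 CPM in T1 (-3.06 ± 1.53; -1.63 without T1 replicate 4). T1 libraries spread from 140 to 4741 CPM, and the groups overlapped. Slc17a7, which loads synaptic vesicles with glutamate, stood at 1.73, 2.75, 2.56 and 60.0 CPM in T3 and at 5.92, 22.4, 17.6 and 16.7 CPM in T1 (0.10 ± 1.28). The mean log2 CPM of all neuron, astrocyte and oligodendrocyte markers was 2.22, 2.80, 2.41 and 5.17 in T3, against 3.55, 4.06, 4.88 and 6.20 in T1. All 14 neuron markers were lower in T3 below number 28 and higher at 28 and above. With the brain marker mean as a covariate the endothelium median was -0.67, the respiratory chain median 0.16 and the inflammatory median -0.65. With the number class as a further term they were -0.33, -0.02 and -0.30.

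Red cell genes also changed side between the classes. All 8 erythrocyte genes were below 0 in the pooled comparison, with a median of -0.46 (-0.11 without T1 replicate 1 and -0.72 without T3 replicate 4). At an unadjusted p under 0.05 there were 0 (8.2% of all genes). All 8 were lower in T3 below number 28 (median -1.39) and higher in T3 at 28 and above (median 0.25). Reads of the near-identical globin genes cannot be assigned to 1 copy with certainty.

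**Figure D5:**
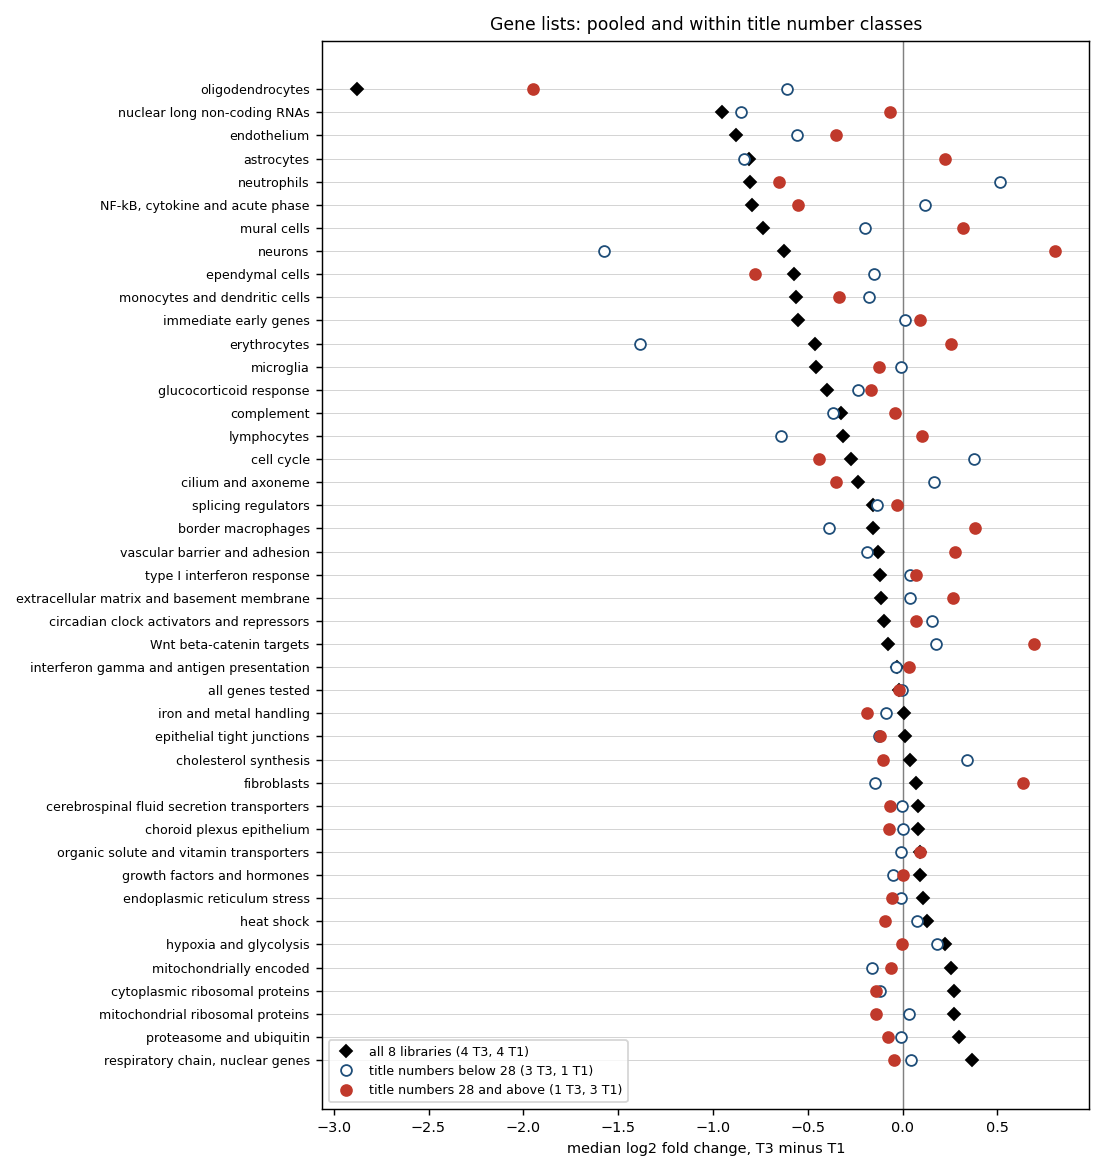
Median log2 fold change, T3 minus T1 (x axis), of each gene list (rows, ordered by the pooled value), for all 8 libraries (diamonds), title numbers below 28 (open circles) and 28 and above (filled circles). The endothelium list lies below 0 in all 3 (-0.88, -0.56 and -0.35), and the respiratory chain list lies at 0.37 pooled and at 0.05 and -0.04 within classes.

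The 19 epithelial markers had log2 fold changes of -0.17 to 0.40 and a median of 0.08, with 0 at an unadjusted p under 0.05. Ttr stood at 118370, 108750, 124030 and 57661 CPM in T3 and at 148900, 92024, 77352 and 54516 CPM in T1 (0.13 ± 0.29). Transporters of cerebrospinal fluid secretion (median 0.08 over 20) and of organic solutes and vitamins (median 0.09 over 22) had 0 members at an unadjusted p under 0.05. Of all genes, 8.2% had such a p. The tight junction genes had a median of 0.01 over 17 tested. Cldn1 (0.04 ± 0.18), Cldn2 (0.10 ± 0.19) and Cldn3 (0.10 ± 0.20) encode claudins, and Tjp1 (-0.19 ± 0.33) and Ocln (0.09 ± 0.17) encode the scaffold ZO-1 and occludin.

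Clock genes overlapped between T3 and T1. Arntl, the central activator of the circadian clock, stood at 30.5, 36.1, 24.3 and 35.6 CPM in T3 and at 40.0, 22.4, 38.9 and 23 CPM in T1 (0.03 ± 0.21), with 14.8 ± 2.96 CPM in CTRL. Dbp, a clock output gene, stood at 12.6, 14.8, 21.2 and 13.9 CPM in T3 and at 8.67, 21.1, 11.1 and 17 CPM in T1 (0.11 ± 0.24), with 33.3 ± 7.44 CPM in CTRL. Npas2, a partner of Arntl, had -0.10 ± 0.24. The clock list had 0 of 22 members at an unadjusted p under 0.05 (8.2% of all genes) and a median of -0.10. Heat shock (median 0.13), endoplasmic reticulum stress (0.11) and cholesterol synthesis (0.04) had 0 such members too.

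Iron and metal genes had a median of 0.01 over 16 tested. Slc39a14, a zinc and iron importer gene, did not overlap, at 40.6 to 60.3 CPM in T3 and 66.4 to 84 CPM in T1 (-0.49 ± 0.23). Mt2, a metallothionein gene, had -1.31 ± 0.60, and -0.29 with the brain marker covariate. Border macrophage markers had a median of -0.16 with 11 of 15 below 0, and microglia markers -0.45 with 6 of 10 below 0. The microglia median was -0.18 without T1 replicate 3, -0.03 without T1 replicate 4 and -0.73 without T3 replicate 4, it was -0.01 and -0.13 in the lower and higher number classes, and it was 0.13 with the brain marker covariate. Within numbers below 28, 13 of the 15 border macrophage markers were lower in T3, and at 28 and above 4 were.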

How the data were processed

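Libraries from whole choroid plexus were made with a low-input kit (SMART-Seq v4), per the labels' protocols. The authors deposited raw read counts per Ensembl gene in 1 table of 17 libraries. Build GRCm38 and the tools featureCounts 1.6.4, STAR 2.6.1b and Trimmomatic 0.39 are listed in the submitters' processing notes. Annotation release, strand setting and multi-mapping rule are not stated in the sources used here. Overlapping or near-identical genes can share reads. Symbols and coordinates (1-based) come from GENCODE M21, in which 55394 of 55487 identifiers were found.

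Of 39303 genes with a read, 16851 passed edgeR's filterByExpr by group. The fit used edgeR 4.0.16 in R 4.3.3 (TMM, 1 mean per group over 17 libraries, robust quasi-likelihood F test, Benjamini-Hochberg threshold 0.05; biological coefficient of variation 37.6%). The SE is approximate (size of the log2 fold change over the root of F). DESeq2 1.42.0 and limma 3.58.1 served as alternatives. List medians have no test, and log2 CPM values use a prior count of 2. The pipeline was tested on simulated counts.

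Library totals of 8875921 to 26839417 counts set the precision of low genes. Between libraries within T3 or T1 the chi-square per gene was 7.52 to 107, so that none was a copy. The genes and lists were chosen with earlier results of these data known. Named genes were the 24 with the smallest p (mean of at least 1 CPM, established symbol), since 0 were called, 24 fixed genes, and up to 4 members with the smallest p of each list described; other names are marked where used, and 1 gene named by the rule is not reported here. Replicate numbers follow accession order.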

Additional observations from a re-analysis of the deposited data

Results flagged for a closer look

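Single libraries that stood far from the other 3 of their group were looked for among the 84 named genes and 5 library measures (depth, detected genes and shares of counts) in T3 and in T1, which makes 178 looks. There were 28, and T3 replicate 4 accounted for 15 of them. Chance gives about 1 in 20 for independent looks. These looks share their libraries and the genes were partly chosen by p, so that the count is a description.

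T3 replicate 4 was the highest of its group for Pecam1 (40.5 CPM), Tjp1 (61.7), Lcn2 (3.38), Fn1 (145), Col1a2 (263), Slc17a7 (60), Mbp (491), Zfp36 (19.5), Col4a2 (26.7) and Cfp (2.47). It was the lowest for Spag6l (76.8 CPM), Uqcrfs1 (249), Ndufa10 (137), Aldoa (1491) and Tpi1 (486). The other T3 libraries that stood apart were replicate 1 for Rapgef1 (7.51 CPM, lowest) and Lrrc71 (0.385, highest) and replicate 2 for Dnah9 (16.8, lowest).

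In T1, replicate 3 was the highest for Exoc3l2 (20.2 CPM), Lcn2 (49.2), Osmr (26.4), Ccl2 (8.29) and Tnfaip2 (19.8). T1 replicate 4 was the highest for Lrrc71 (8.56 CPM) and Col1a2 (175), and T1 replicate 2 for Nif3l1 (17.6). T1 replicate 1 was the lowest for Dnah9 (15.5 CPM) and had the highest mitochondrially encoded share (3.37% of counts).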

How the results depend on the processing

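edgeR called 0 genes in either direction under the other normalizations, filters and covariates, with only the 8 libraries, and within both number classes. DESeq2 called 2 higher and 22 lower, and limma voom with quality weights called 2077 higher and 1988 lower. Leaving out 1 library at a time gave 0 to 1 higher and 0 to 3 lower, with calls without T1 replicate 2 (3 lower) and without T3 replicate 4 (1 higher, 2 lower).

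The 24 genes with the smallest p kept their sign in every alternative that tested them. They were chosen by p from these same libraries, so that their steady sign is a description and no independent support. Signs turned for other named genes. Below number 28 the log2 fold changes were Cldn1 -0.20, Cldn2 -0.082, Cldn3 -0.13, Cldn5 -0.86, Ocln -0.19, Ttr -0.35, Arntl -0.40, Npas2 0.42, Ccl2 0.35, Fos 0.29, Fn1 -0.040, Slc17a7 -1.30, Dnah9 0.23, Steap4 0.048, Zfp36 0.24, Ier2 0.11, Col4a2 0.15, Hspg2 0.15 and Abcc9 0.11. At 28 and above they were Cdh5 0.0041, Cldn1 -0.12, Cldn2 -0.0073, Cldn3 -0.39, Tjp1 0.59, Ttr -0.37, Dbp -0.24, Npas2 0.11, Col1a2 0.89, Spag6l -0.15 and Aldoa -0.031. With a term for the number class they were Cldn1 -0.16, Cldn2 -0.045, Cldn3 -0.26, Tjp1 0.24, Ttr -0.36, Arntl -0.024, Npas2 0.26 and Col1a2 0.20. With the brain marker covariate they were Cldn1 -0.054, Cldn2 -0.056, Cldn3 -0.12, Tjp1 0.062, Ttr -0.19, Arntl -0.033 and Col1a2 0.11. With both they were Cldn1 -0.17, Cldn2 -0.086, Cldn3 -0.29, Tjp1 0.31, Ocln -0.020, Ttr -0.41, Arntl -0.041, Npas2 0.19 and Col1a2 0.24. In limma voom they were Cldn5 -0.14, Arntl -0.0070, Fn1 -0.23 and Slc17a7 -2.59. The cause was not tested.

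Leaving out 1 library at a time, the log2 fold changes ranged over -0.084 to 0.16 for Cldn1, -0.044 to 0.20 for Cldn2, -0.073 to 0.26 for Cldn3, -0.61 to 0.61 for Cldn5, -0.050 to 0.20 for Ocln, -0.064 to 0.46 for Ttr, -0.12 to 0.18 for Arntl, -0.076 to 0.33 for Dbp, -0.26 to 0.020 for Npas2, -4.32 to 1.65 for Lcn2, -0.68 to 2.38 for Fn1, -0.68 to 0.13 for Col1a2 and -2.73 to 0.47 for Slc17a7. No paired analysis was possible because the labels give no replicate numbers shared between groups. A p that misses the threshold does not show that T3 and T1 are alike, and with 1 lone library in each number class the within-class values rest on few libraries.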
